A study of Homo sapiens with 2 samples.

Results

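Collagen chain genes were followed in a comparison of young and senescent human lung fibroblasts. They are the protein-coding genes named COL, a type number, A and a chain number, and 43 of the 49900 named genes in the deposited table meet that rule, with 438 of its 202463 transcripts. WI-38 is an established line of normal diploid lung fibroblasts that stops dividing after a limited number of population doublings, which is replicative senescence. Total RNA came from 2 cultures, a young one at population doubling level (PDL) 20 and a senescent one at PDL 52, both grown in DMEM, with no other treatment named. Each group holds 1 library, so no spread between cultures is known, every difference is one between 2 libraries, and no test was possible. COL26A1 appears under another symbol in the table and was therefore not a member by name.

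Collagens are matrix proteins whose chains wind around each other into a stiff rod. Every trimer needs chains from the right genes, so the balance between partner chains bears on which trimers a cell can make. Fibrillar collagens (types I, II, III, V, XI, XXIV and XXVII) pack into the fibrils that carry tension, and fibroblasts are their main source in lung. Network collagens (types IV, VIII and X) form sheets, above all the basement membrane. Beaded collagen VI forms microfibrils around cells, and FACIT collagens (fibril-associated collagens with interrupted triple helices, such as types XII, XIV and XVI) decorate the surface of fibrils or other matrix assemblies. The remaining measured members are the multiplexins XV and XVIII of basement membrane zones, the transmembrane collagen XIII, the anchoring-fibril collagen VII and collagen XXVIII.

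A gene's level was the sum of the FPKM (fragments divided by transcript length in kilobases and by the library's mapped fragments) of the transcripts classed as its isoforms. Each FPKM is per length, but short transcripts weigh heavily in such a sum. Levels, ranks and shares compared between genes are therefore rough and can change with the way of summing. Ratios are log2 of senescent over young after 1 FPKM was added to both, which understates the difference of low genes, and folds named as plain are ratios of FPKM without that addition. A gene was measured if either library reached 1 FPKM, and it was called higher or lower past 2-fold on the log2 scale. Paired values give the young library first.

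The most abundant collagen genes were lower in the senescent library, and the classes differed in how much. Summed over all members, collagen FPKM stood at 11291 for the young and 3058 for the senescent library, a plain ratio of 0.271. Of the 43 members 24 were measured, 22 of them in both libraries, and of these 13 were lower, 1 was higher and 10 lay within 2-fold. Among all 17965 measured genes, 8.58% were lower and 6.65% higher by the same rule, and among 12306 protein-coding genes 8.62% were lower and 6.48% higher. The median log2 ratio was -1.08 over the measured collagen genes, -0.10 over all measured genes and -0.06 over protein-coding genes. COL14A1 and COL15A1 passed the filter through the young library alone, and without them the collagen median was -1.0 over 22 genes, against -0.04 over the protein-coding genes that reached 1 FPKM in each library.

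**Figure D1:**
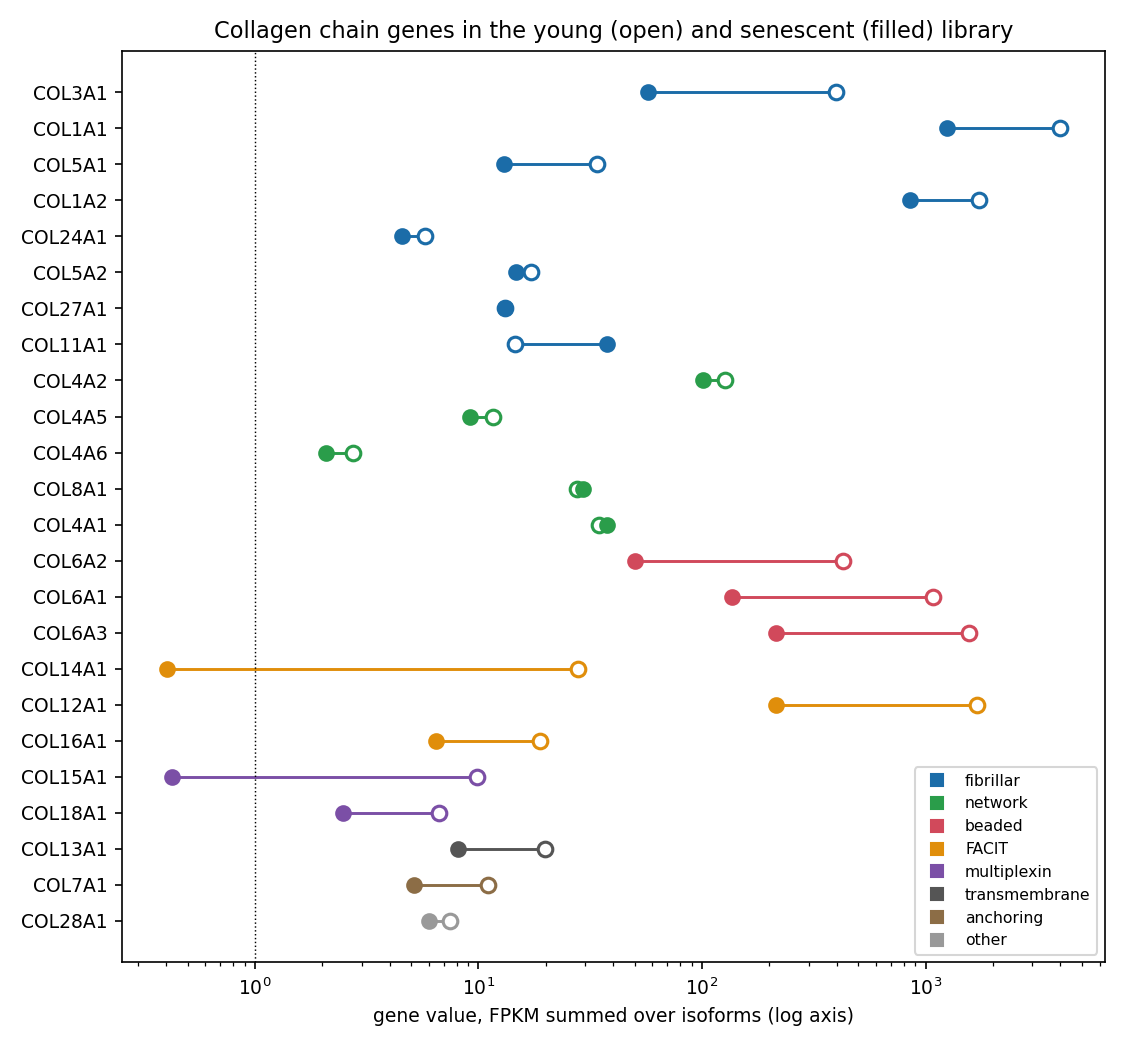
Level of each measured collagen gene in FPKM on a log axis, with 1 open point for the young and 1 filled point for the senescent library, coloured by class and ordered by ratio within a class. The dotted line marks 1 FPKM. The beaded genes and COL12A1 lie far apart between libraries, the network genes lie close together, and COL11A1 has its filled point to the right.

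All 3 measured beaded collagen genes were lower by nearly the same ratio. COL6A1, which encodes the alpha-1 chain of collagen VI, was at 1074 and 136 FPKM, a log2 ratio of -2.97. COL6A2, its neighbour on chromosome 21 and the gene of the alpha-2 chain, was at 429 and 49.9 FPKM, a log2 ratio of -3.08. COL6A3, which encodes the long alpha-3 chain, was at 1567 and 214 FPKM, a log2 ratio of -2.87. The plain folds thus ran from 7.32-fold for COL6A3 to 8.6-fold for COL6A2, and the class sum went from 3070.2 to 400.2 FPKM. COL6A1 (chr21:47401651-47424964 in hg19, plus strand) and COL6A2 (chr21:47518011-47552763, plus strand) lie 93046 bases apart, whereas COL6A3 is on chromosome 2 (chr2:238232646-238323018, minus strand), so the shared ratio held across chromosomes. The remaining beaded members, COL6A5 and COL6A6, were below 1 FPKM in both libraries. Over the alternative ways of summing, scaling and filtering, the log2 ratios of the 3 measured genes stayed between -3.22 and -2.78.

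The 3 measured FACIT genes were lower as well, over a wider range. COL12A1, whose collagen XII coats collagen I fibrils, was the most abundant of them at 1695 and 214 FPKM, a log2 ratio of -2.98 that lies beside those of collagen VI. Every isoform of COL12A1 summed here has the status FAIL in the authors' deposited table, and the gene dropped out when only transcripts of status OK were used. COL14A1, the gene of collagen XIV, was at 27.9 and 0.403 FPKM. Its log2 ratio of -4.36 was the lowest of the measured collagen genes, a plain 69.2-fold, and its estimated fragments numbered 1842 and 18. With so few fragments the size depended on the pseudocount, from -5.80 with 0.1 FPKM to -2.61 with 5 FPKM. COL16A1 was at 18.9 and 6.47 FPKM, a log2 ratio of -1.42, and lay inside 2-fold at -0.69 when its most abundant isoform alone was used. The 7 other FACIT members stayed below 1 FPKM in both libraries, with COL19A1 at 0.579 and 0.981 FPKM nearest to that level.

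Fibrillar genes did not move as a block. The genes of the major fibrils were lower: COL1A1 and COL1A2, the chains of collagen I, were at 3994 and 1242 FPKM and at 1739.6 and 848 FPKM. Their log2 ratios were -1.68 and -1.04, and COL1A2 lay close to the 2-fold line, at -1.21 to -0.95 over the alternatives. COL3A1, the only chain of collagen III, was at 397 and 57.4 FPKM, a log2 ratio of -2.77. By summed FPKM, collagen I genes remained at rank 1 and rank 2 of the members in both libraries, and COL3A1 at rank 7. With coding transcripts alone, COL6A3 lay above COL1A2 in the young library, at 881 and 458 FPKM. It lay below COL1A2 in the senescent library, at 120 and 197 FPKM.

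The minor fibrillar genes, whose products sit inside collagen I fibrils and limit their width, went different ways. COL5A1 was lower at 34.0 and 13 FPKM, a log2 ratio of -1.33, while its partner COL5A2 was at 17.2 and 14.7 FPKM, a log2 ratio of -0.21. COL11A1, best known from cartilage, was the single collagen gene called higher, at 14.5 and 37.7 FPKM, a log2 ratio of 1.32 and a plain 2.59-fold. It moved from rank 16 of the members to rank 9, and its log2 ratio stayed between 1.13 and 1.63 over the alternatives. It did not pass a 3-fold threshold. Of the 8 chondrocyte markers only 2 were measured, SOX9 at 22.3 and 23.3 FPKM and MATN3 at 2.39 and 0.645 FPKM. ACAN, the aggrecan gene, named outside the rule for the list, was at 0.315 and 0.0350 FPKM, and COL2A1, the main cartilage collagen gene, was at 0.0296 FPKM and listed at 0. COL24A1 and COL27A1, from a separate branch of the fibrillar genes, were within 2-fold at 5.79 and 4.56 FPKM and at 13.1 and 13.2 FPKM.

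Network collagen genes differed little. None of the 5 measured was past 2-fold, and their log2 ratios ran from -0.33 to 0.12 with a median of -0.28. COL4A1 and COL4A2, the chains of the common basement membrane collagen IV, were at 34.5 and 37.6 FPKM and at 127 and 101 FPKM. Their summed isoforms have the status FAIL in the authors' deposited table. COL4A5 was at 11.6 and 9.14 FPKM, and COL4A6, just above the filter, at 2.74 and 2.09 FPKM. COL8A1, a short-chain collagen gene of vessel walls and other sheets, was at 27.6 and 29.3 FPKM, whereas COL8A2 was below the filter at 0.738 and 0.0469 FPKM. The network sum was 206 and 181 FPKM, a plain ratio of 0.879, beside 0.359 for the fibrillar, 0.130 for the beaded and 0.128 for the FACIT sum.

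Both multiplexin genes were lower. COL15A1, whose product bridges basement membrane and fibrils, was at 9.87 and 0.424 FPKM, a log2 ratio of -2.93 on 627 and 13 estimated fragments. COL18A1, the gene from whose product endostatin is cut, was at 6.66 and 2.49 FPKM, a log2 ratio of -1.13. The transmembrane gene COL13A1 was at 19.8 and 8.13 FPKM, a log2 ratio of -1.19. COL7A1, the gene of anchoring fibrils, was just within 2-fold at 11.0 and 5.13 FPKM, a log2 ratio of -0.97, and COL28A1 was at 7.43 and 6.0 FPKM. COL18A1, COL13A1 and COL7A1 changed sides of the 2-fold line among the alternatives, with ranges of -1.38 to -0.64, -1.36 to -0.91 and -1.39 to -0.55.

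**Figure D2:**
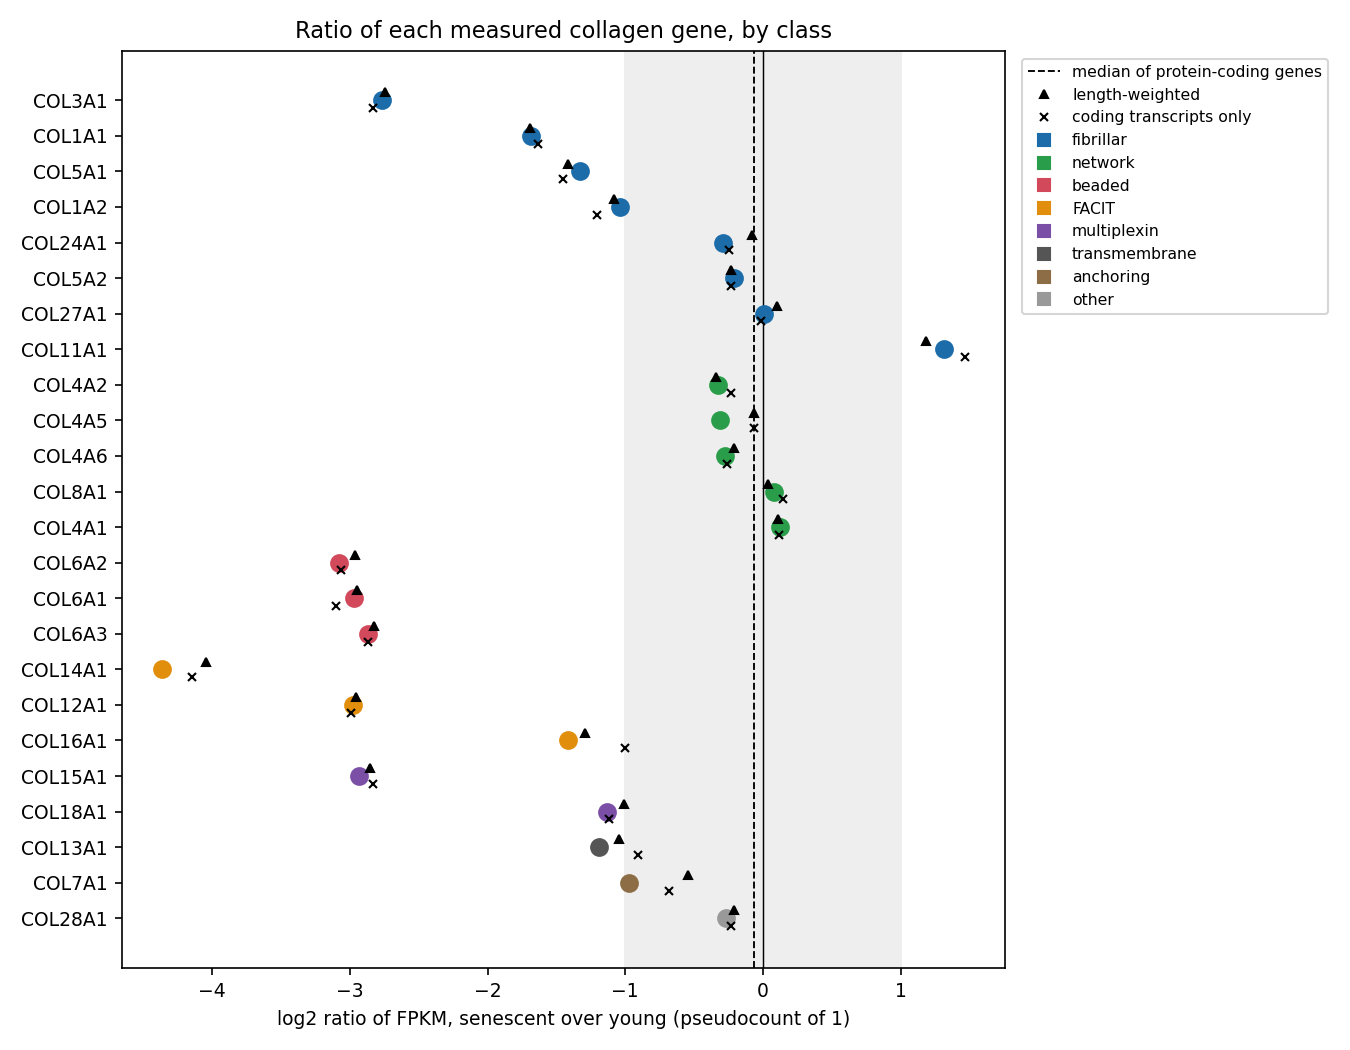
Log2 ratio of senescent over young FPKM for each measured collagen gene (coloured points), with the same ratio from length-weighted values (triangles) and from transcripts of coding biotype (crosses). The shaded band is 2-fold and the dashed line the median of protein-coding genes at -0.06. Beaded points cluster near -3 and network points near 0, and the 3 ways of reading a gene lie close together.

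The 19 members that were not measured had at most 0.981 FPKM in either library. They were COL2A1, COL5A3 and COL11A2 of the fibrillar class, COL4A3, COL4A4, COL8A2 and COL10A1 of the network class, COL6A5 and COL6A6, the FACIT genes COL9A1, COL9A2, COL9A3, COL19A1, COL20A1, COL21A1 and COL22A1, and the transmembrane genes COL17A1, COL23A1 and COL25A1. COL10A1, the gene of hypertrophic cartilage, was just outside the filter at 0.943 and 0.967 FPKM. COL23A1 was listed at 0 in both libraries.

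The make-up of collagen RNA shifted along with its amount. Fibrillar genes made up 55.1% of the summed collagen FPKM for the young and 73.0% for the senescent library, although their own sum was lower. Beaded genes went from 27.2% to 13.1%, FACIT genes from 15.4% to 7.30% and network genes from 1.82% to 5.91%. The direction of these 4 shares was the same with other ways of forming the gene level. From transcripts of coding biotype alone the fibrillar share was 43.5% and 63.3%, the beaded 40.3% and 20.2% and the network 2.6% and 9.29%. The length-weighted values gave 51.2% and 69.8%, 32.7% and 17.0%, and 1.57% and 5.65%.

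**Figure D3:**
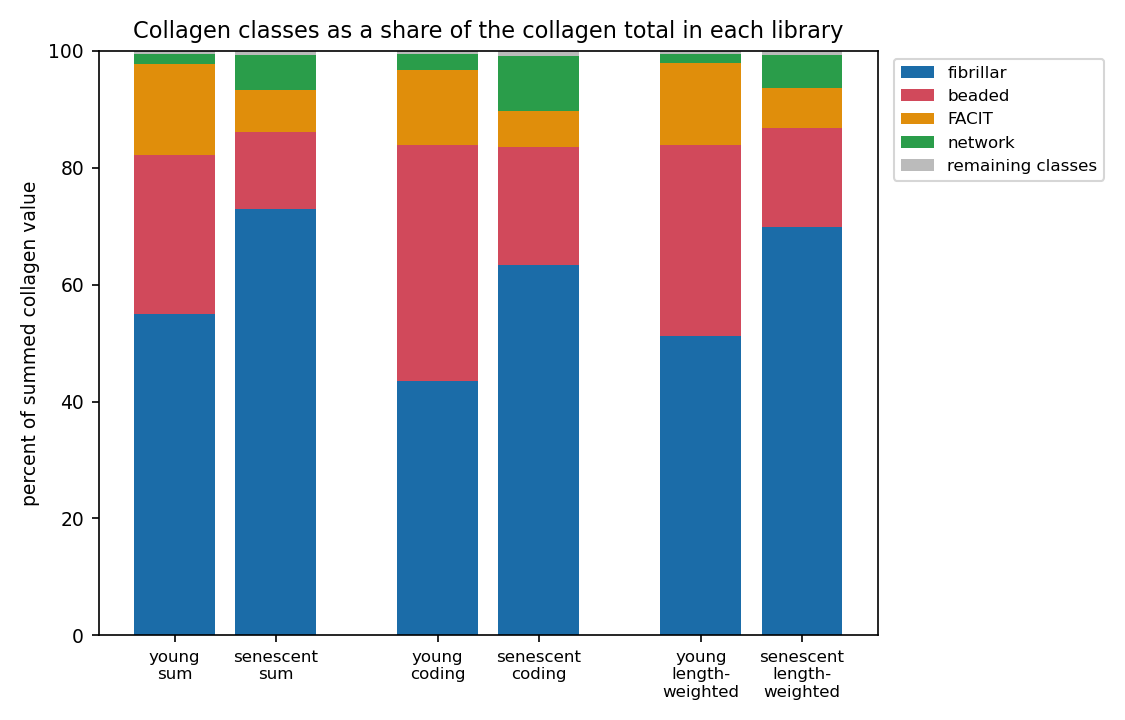
Share of each collagen class in the summed collagen level of a library, in percent, with the young and senescent library side by side for 3 ways of forming the gene level. In all 3 the fibrillar and network shares are larger and the beaded and FACIT shares smaller in the senescent library. Rows of status FAIL are included in all 3.

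Partner chains of a trimer were compared within each library. Collagen I is built mostly from more COL1A1 than COL1A2 chains, and the FPKM ratio of COL1A1 to COL1A2 was 2.30 for the young and 1.46 for the senescent library. With coding transcripts alone the ratios were 2.43 and 1.81, and with length-weighted values 2.32 and 1.52, lower in the senescent library each time. For collagen V the ratio of COL5A1 to COL5A2 went from 1.98 to 0.883, so the chain in excess was a different one in each library. That crossing depends on which rows are assigned to COL5A2: 2 further rows with the gene name but no biotype hold 43.3 and 36.6 FPKM, more than the gene's level by the rule, and with them the ratio was 0.562 and 0.253, below 1 in both libraries.

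The proportions of the collagen VI chains were close in both libraries. The ratio of COL6A1 to COL6A2 was 2.50 and 2.73, and that of COL6A1 to COL6A3 was 0.685 and 0.635. Which chain leads could not be fixed, since with coding transcripts alone COL6A1 to COL6A2 was 0.682 and 0.660, but the 2 libraries stayed close together either way. For collagen IV the ratio of COL4A1 to COL4A2 was 0.271 and 0.371, or 0.653 and 0.910 with length-weighted values. COL4A5 to COL4A6 was 4.23 and 4.37. The ratio of COL1A1 to COL3A1, genes of different collagens that share fibrils in lung, went from 10.1 to 21.6, and from 14.3 to 35.6 with coding transcripts alone.

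Single transcripts were examined next, because short ones weigh heavily in a sum of FPKM. Of 132 measured transcripts in the 24 genes, 68 were lower and 7 higher, or 51.5% and 5.30%, where 13.1% and 11.6% of all 48676 measured transcripts of these classes were lower and higher. Some of the 132 passed the filter through 1 library alone, which fixes their direction. For the young library these include 4 of 5 for COL16A1 and 2 of 2 for COL15A1. The 34 transcripts of retained-intron biotype summed to 6337 and 1821 FPKM, the 71 of coding biotype to 3943 and 994 FPKM, and the 26 processed transcripts to 984 and 226 FPKM. The share of coding and other transcripts within a gene was alike in both libraries for the abundant genes: other biotypes made up 72.1% and 71.2% of COL1A1, 73.7% and 76.7% of COL1A2, and 71.6% and 72.1% of COL12A1.

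For collagen I the most abundant entry was COL1A1-017, a retained-intron transcript of 838 bases at 2797 and 841 FPKM. The longest abundant coding transcript, an assembled isoform of 4564 bases listed under COL1A1-001, was at 682 and 174 FPKM. The complete match to COL1A1-001, of 6727 bases, was at 7.67 and 4.11 FPKM, a log2 ratio of -0.76 and within 2-fold. The authors' deposited table gives COL1A1-017 and the 4564-base isoform q-values of 0.0935 and 0.0477. With 1 library per group, q-values from that table, here and below, do not measure the spread between cultures. COL1A1-016, a short retained-intron transcript at 1.48 and 5.52 FPKM, went the other way and was picked out after its values were seen.

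All 12 measured transcripts of COL6A3 and all 7 of COL6A2 were lower, as were 7 of 8 for COL6A1. Of these, 4 of COL6A3, 3 of COL6A2 and 1 of COL6A1 passed the filter through the young library alone, which fixes their direction. The exception in COL6A1 was a coding transcript listed at 0 for young and at 1.51 FPKM for senescent cells, singled out only once the values were known. The 3461-base coding transcript COL6A2-001 was at 149 and 18.0 FPKM. A 6639-base assembled isoform listed under COL6A3-001 was at 299.7 and 37.1 FPKM. The authors' deposited table calls 6 summed isoforms of COL6A1, 5 of COL6A2 and 9 of COL6A3 significantly lower, with a q-value of 2.48e-07 for the 4238-base COL6A1-001 at 67.4 and 5.42 FPKM. Isoforms of 1 gene are not independent calls, and such q-values come from 1 library per group.

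All 6 measured transcripts of COL3A1 were lower, 2 of them measured through the young library alone. The 4 measured transcripts of COL14A1 passed the filter through the young library alone, so their direction says nothing further. All 6 of COL11A1 were above 0 on the log2 scale, 2 of them past 2-fold. Of these, the 377-base COL11A1-005, at 0.647 and 1.67 FPKM, and a 7244-base transcript passed the filter through the senescent library alone, which fixes their direction. The leading COL11A1 transcript, the 776-base COL11A1-003, was at 5.13 and 18.0 FPKM. In the authors' deposited table, 36 of the 150 collagen isoforms of status OK in the 3 summed classes are significant and lower and 1 is significant and higher, where 2.03% and 1.66% of all 72902 such isoforms are. The significant collagen isoforms belong to 12 genes, so they are not independent of each other. The authors' deposited table also calls significant 5 collagen transcripts of other classes, 2 of them at COL6A3. The higher one is a 7244-base coding transcript of COL11A1, at 0.251 and 1.43 FPKM with a q-value of 0.0744. The smallest q-value among members in the authors' deposited table, 8.96e-10, belongs to COL15A1-001, at 6.78 and 0.104 FPKM. The authors' deposited table also calls COL8A2-003 lower, with a q-value of 0.00865, though that gene is below the filter used here.

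Some genes within 2-fold as a sum had transcripts that went opposite ways. For COL4A1, the 5471-base coding COL4A1-002 was at 3.15 and 10.8 FPKM, while the 5478-base assembled isoform COL4A1-001 was at 6.60 and 0.520 FPKM. Their status is FAIL in the authors' deposited table, and how reads common to such transcripts were divided is not given in the sources used here. In COL12A1, the 11351-base COL12A1-201 was at 2.87 and 18.2 FPKM. An 8003-base assembled isoform listed under COL12A1-001 was at 201 and 13.2 FPKM (a transcript pair chosen after its values were seen). Even so, the coding transcripts of COL12A1 together were at 481 and 59.8 FPKM.

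**Figure D4:**
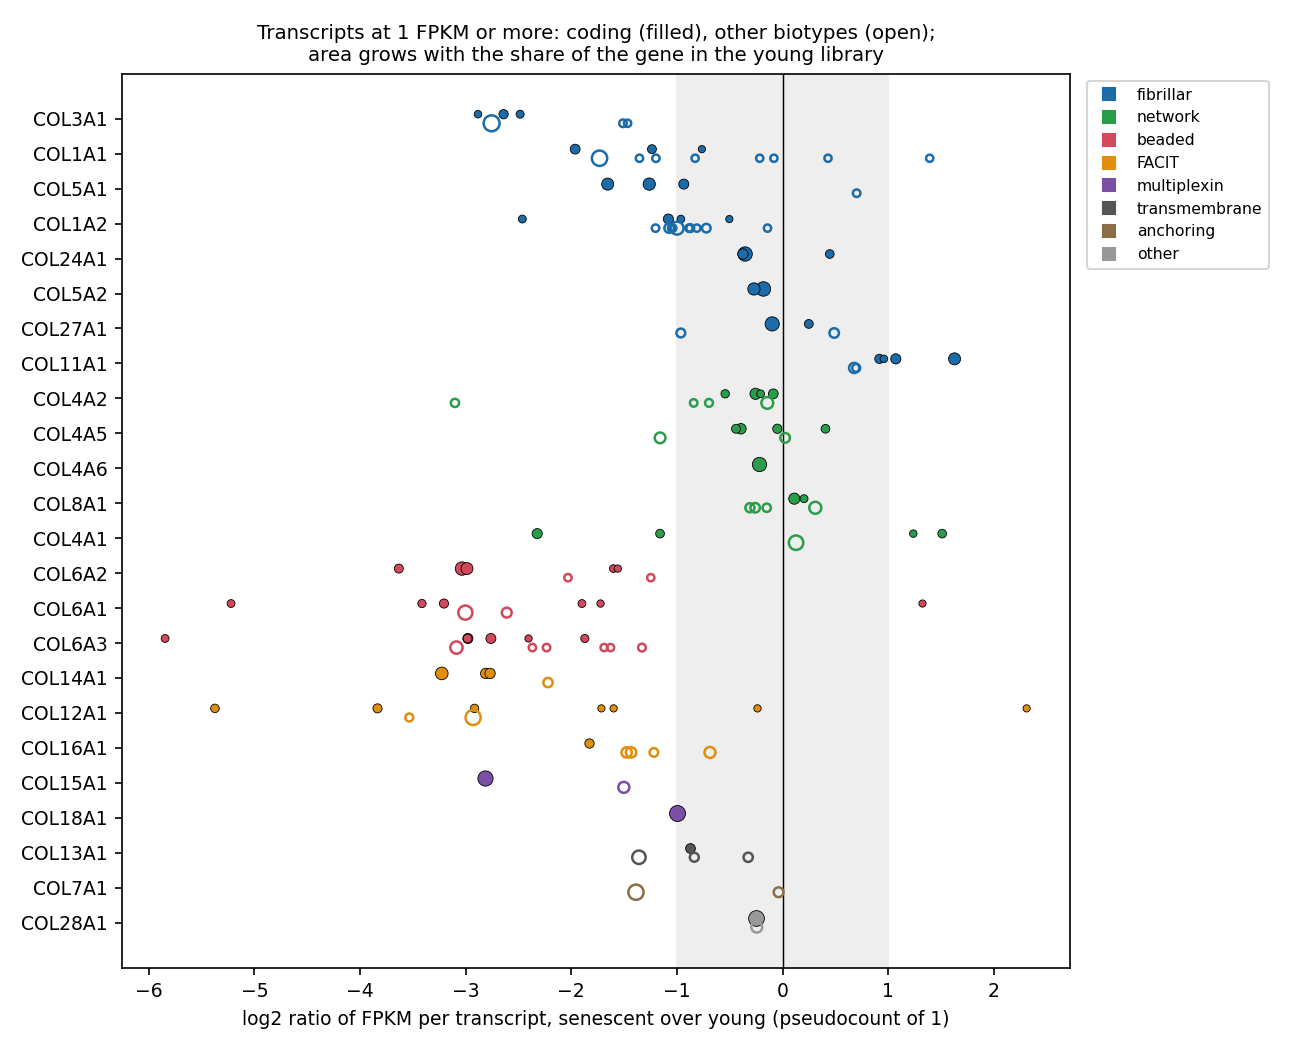
Log2 ratio of senescent over young FPKM for every measured collagen transcript, filled for coding and open for other biotypes, coloured by class, with an area that grows with the transcript's share of its gene in the young library. Nearly all transcripts of the collagen VI genes lie left of the 2-fold band, those of COL11A1 lie to the right of 0, and COL4A1 spreads over both sides.

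Other assembled transcripts at the same genes, which the gene level does not use, were examined as well. Whether their reads are separate from those of the summed isoforms was not tested. Transcripts inside introns were measured at 13 members, of which 5 were lower and 0 higher. Over all 4898 genes with such transcripts 29.1% were lower and 3.21% higher, so the share among the collagen genes is near that of genes at large. Transcripts just past the gene end, which the table classes as possible polymerase run-on, were measured at 8 members, of which 4 were lower and 0 higher, against 30.7% and 10.5% of all 2083 genes with such transcripts. With so few members these counts show nothing particular to collagen genes, and the pseudocount of 1 FPKM shrinks the log2 ratios of such low values. At COL12A1 the run-on transcript was at 5.55 and 0.289 FPKM, a log2 ratio of -2.35 and a plain 19.2-fold beside 7.91-fold for the gene, with a q-value of 0.00313 in the authors' deposited table. At COL3A1 it was at 10.9 and 1.31 FPKM, a log2 ratio of -2.37 and a plain 8.37-fold beside 6.90-fold for the gene. At COL6A3 the run-on transcripts were at 3.41 and 0.769 FPKM, a plain 4.44-fold beside 7.32-fold for the gene.

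At COL5A2, where the gene was at -0.21, the run-on transcripts were at 7.31 and 6.61 FPKM, a log2 ratio of -0.13, and the intronic transcript was at 7.27 and 3.24 FPKM. At COL24A1 the intronic transcripts were at 6.91 and 1.5 FPKM, a log2 ratio of -1.66, and the gene was at -0.29. The intronic transcript of COL6A3 was at 345 and 52.4 FPKM, with a log2 ratio of -2.70. At COL12A1 a transcript classed as overlapping exons was at 320 and 54.2 FPKM, a log2 ratio of -2.54. Transcripts over exons on the opposite strand were measured at 4 members, where 14.1% and 12.2% of all 696 genes with such transcripts were lower and higher, and at COL6A2 they stood at 393 and 45.7 FPKM with the ratio of the gene itself, -3.08. Whether the counting used the strand is not given in the sources used here, so these cannot be told apart from the gene's own reads.

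**Figure D5:**
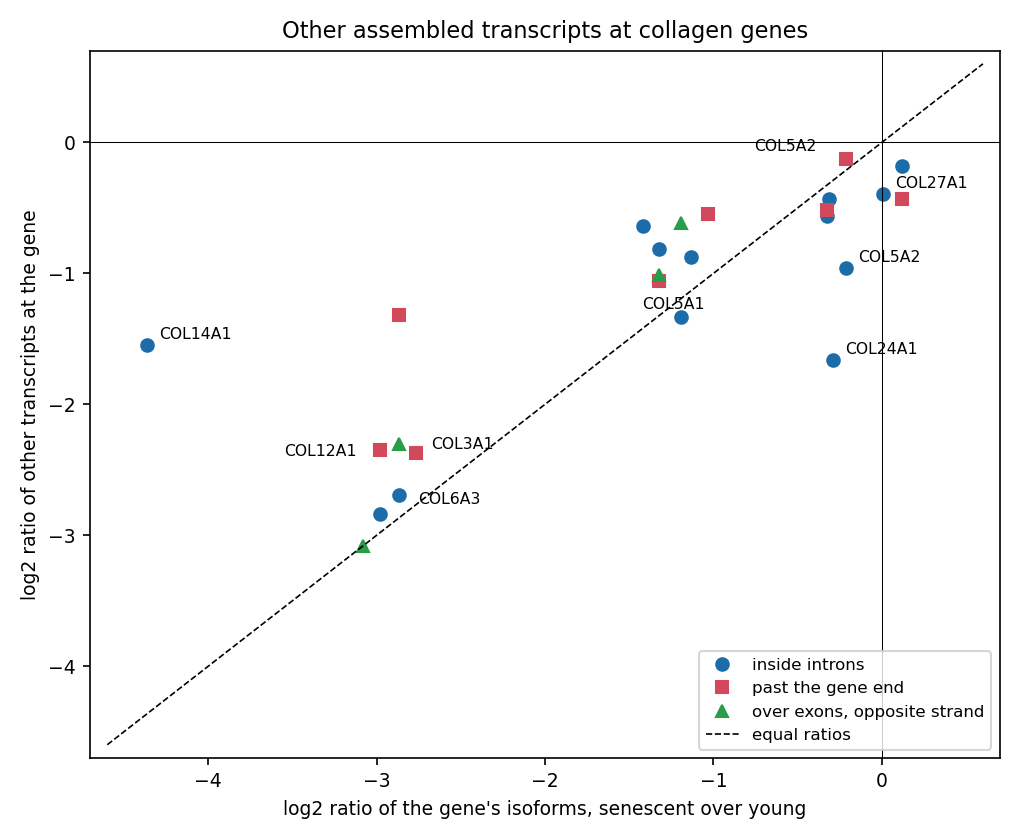
Log2 ratio of transcripts inside introns (circles), past the gene end (squares) and over exons on the opposite strand (triangles), plotted against the log2 ratio of the collagen gene they belong to, with equal ratios on the dashed line. Most points lie above the line at the low end. The pseudocount of 1 FPKM shrinks the ratios of low values, but the intronic transcript of COL6A3, at 345 and 52.4 FPKM, lies above the line too. The intronic transcripts of COL24A1 lie well below the line.

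Neighbouring collagen genes did not always share a ratio. COL3A1 (chr2:189839046-189877472 in hg19, plus strand) and COL5A2 (chr2:189896622-190044605, minus strand) end 19149 bases apart, and their log2 ratios were -2.77 and -0.21. COL4A1 (chr13:110801311-110959496, minus strand) and COL4A2 (chr13:110958159-111165374, plus strand) overlap at their starts and were both within 2-fold. So were COL4A6 and COL4A5, which start 346 bases apart on opposite strands of chromosome X.

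Promoter sequence could be read for 17 of the 24 measured members, as the 250 bases before the start in RefSeq on GRCh38.p14 (31 of all 43 members matched). Printed below are the stretch common to the head-to-head COL4A1 and COL4A2 genes, which were within 2-fold, and the promoters of COL6A2, COL6A3 and COL12A1, which were lower, and of COL11A1, which was higher. Sequences run 5′ to 3′ on the strand named, and capitals mark 3 motifs on either strand. These are the CCAAT box, searched by that name's letters, the GC box, searched as GGGCGG, and the TATA box, searched as TATAAA.
COL4A1 and COL4A2, chr13:110307158-110307283, plus strand: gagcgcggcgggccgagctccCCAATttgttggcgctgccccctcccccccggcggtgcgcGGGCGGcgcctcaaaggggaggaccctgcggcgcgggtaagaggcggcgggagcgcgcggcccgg
COL6A2, chr21:46097862-46098111, plus strand: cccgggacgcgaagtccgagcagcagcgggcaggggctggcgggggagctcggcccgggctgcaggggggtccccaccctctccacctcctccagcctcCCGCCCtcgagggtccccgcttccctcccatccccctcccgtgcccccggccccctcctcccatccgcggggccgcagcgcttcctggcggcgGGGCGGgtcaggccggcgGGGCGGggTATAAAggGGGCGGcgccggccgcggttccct
COL6A3, chr2:237414165-237414414, minus strand: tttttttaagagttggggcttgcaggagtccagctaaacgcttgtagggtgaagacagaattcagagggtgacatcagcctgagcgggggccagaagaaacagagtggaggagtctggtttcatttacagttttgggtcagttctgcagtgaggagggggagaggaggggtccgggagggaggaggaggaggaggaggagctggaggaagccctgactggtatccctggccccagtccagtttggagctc
COL12A1, chr6:75206054-75206303, minus strand: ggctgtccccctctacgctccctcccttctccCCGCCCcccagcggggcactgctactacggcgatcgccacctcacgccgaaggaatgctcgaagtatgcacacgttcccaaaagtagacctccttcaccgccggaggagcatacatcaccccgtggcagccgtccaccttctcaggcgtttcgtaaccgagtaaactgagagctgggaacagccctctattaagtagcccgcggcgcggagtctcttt
COL11A1, chr1:103108523-103108772, minus strand: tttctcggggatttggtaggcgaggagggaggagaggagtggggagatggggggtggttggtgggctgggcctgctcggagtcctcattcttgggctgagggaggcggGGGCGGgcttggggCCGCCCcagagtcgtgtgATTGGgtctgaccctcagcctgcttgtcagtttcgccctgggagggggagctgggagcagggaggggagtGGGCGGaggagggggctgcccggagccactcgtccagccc

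These promoters differ in their boxes. COL6A2 holds 4 GC boxes and a TATA box, and COL6A3, with a like ratio, holds none of the 3 motifs. CCAAT, or ATTGG on the other strand, was found in 0 of the 8 matched members that were lower and in 6 of the other 9: COL4A1, COL4A2, COL4A5, COL4A6, COL11A1 and COL28A1. Among all 35116 promoters of the same length 32.0% hold it. The collagen IV pairs share promoter sequence, so 4 of these 6 genes come from 2 gene pairs. The lower genes COL1A1, COL1A2, COL3A1, COL6A1 and COL14A1 had no matched promoter. The 0 of 8 therefore leaves out the collagen I genes, the most abundant members by summed FPKM, and does not describe the lower members as a whole. GGGCGG was found in 6 of the 8 and 7 of the 9, beside 42.6% of all promoters, and TATAAA in 3 of the 8 and 1 of the 9, beside 10.7%. A match is a run of letters in this window and not a binding site.

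Genes of the enzymes that modify collagen chains were mostly within 2-fold. All 14 measured genes of prolyl and lysyl modification were within 2-fold or higher, that is 0 lower and 2 higher, and the median log2 ratio was -0.07. The 2 higher genes were LEPREL1, a prolyl 3-hydroxylase, at 30.9 and 206 FPKM, and PLOD2, the lysyl hydroxylase of the chain ends, at 28.0 and 145 FPKM. P4HB, a subunit of the prolyl hydroxylase that stabilises the helix, was at 216 and 214 FPKM. Of 20 folding and export genes, 2 stood lower and 0 higher (median -0.19). Among all measured genes 8.58% were lower and 6.65% higher, so these counts are near the share of genes at large. SERPINH1, the collagen chaperone HSP47, was at 142 and 51.2 FPKM and FKBP7 at 12.3 and 5.48 FPKM, while the coat protein gene SEC31A was at 524 and 523 FPKM.

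Several genes of steps outside the cell were lower, where 8.58% of all measured genes were lower and 6.65% higher. Of 6 measured genes of propeptide cleavage 3 were lower and 0 higher (median log2 ratio -1.10): PCOLCE, the enhancer of procollagen cleavage, was at 568 and 21.4 FPKM, ADAMTS2, which removes the amino propeptide, was at 60.1 and 24.6 FPKM, and PCOLCE2 at 3.83 and 0.821 FPKM. PCOLCE2 passed the filter through the young library alone, which fixes its direction, as did ADAMTS3, named outside the rule, at 1.24 and 0.170 FPKM. BMP1, which removes the carboxy propeptide, was at 13.9 and 12.3 FPKM. Of 6 crosslinking genes, 3 stood lower and 0 higher (median -1.0), and the lysyl oxidase family was divided: LOXL3 was at 17.3 and 4.31 FPKM and LOXL1 at 74.2 and 28.6 FPKM, but LOX at 105 and 142 FPKM and LOXL2 at 135 and 217 FPKM. Of 15 fibril regulators 8 were lower and 0 higher (median log2 ratio -1.35), among them the small proteoglycan gene BGN at 312 and 49.2 FPKM.

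No receptor gene was lower past 2-fold. Beside the counts that follow, 8.58% of all measured genes were lower and 6.65% higher by the same rule. Of 13 measured collagen receptor genes 0 were lower and 3 were higher, with a median of -0.34. These were the integrin genes ITGA11 at 7.99 and 33.1 FPKM and ITGA2 at 30.6 and 70.7 FPKM, and ANTXR1 at 69.8 and 149 FPKM. Of 9 collagen breakdown genes 1 was lower and 3 were higher, with a median of 0.08: FAP was lower, and the metalloproteinase genes MMP1 and MMP3 and the cathepsin gene CTSK, the last at 48.3 and 114 FPKM and named outside the rule, were higher. MMP3, at 0.114 and 23.8 FPKM, passed the filter through the senescent library alone. Of 9 genes of proline and glycine supply, amino acids in which collagen is rich, 2 were lower (PHGDH and PSAT1) and 0 higher, with a median of -0.68.

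Of 22 measured genes of transcription factors linked to collagen genes, 3 were lower and 1 higher (median log2 ratio -0.38). With 8.58% lower and 6.65% higher among all measured genes, counts this small show nothing particular to that list. PRRX1, a homeobox factor of mesenchyme, was at 180 and 41.4 FPKM, TCF21 at 23.5 and 7.30 FPKM and TWIST1, named outside the rule, at 14.4 and 4.79 FPKM. SMAD7, an inhibitor of TGF-beta signalling, was the higher one at 2.35 and 8.39 FPKM. Of 16 basement membrane partners of the network collagens 4 were lower and 2 higher. Their median log2 ratio of -0.28 was close to that of the network collagen genes, but the partners spread more widely, and none of those collagen genes was past 2-fold. The laminin gene LAMB1 was at 453 and 430 FPKM, while the nidogen gene NID1 was lower at 45.2 and 7.43 FPKM. Of 10 measured proteins with a collagen-like domain but another name, 4 were lower and 2 higher (median log2 ratio -0.79). COLEC10, a collectin gene, was higher at 5.77 and 67.7 FPKM and the scavenger receptor gene COLEC12 lower at 16.7 and 1.32 FPKM.

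The libraries carried the markers of fibroblasts in both states. All 12 fibroblast markers were measured, 5 were lower and 0 higher (median log2 ratio -0.81), but the lower ones include COL1A1 and COL1A2. The other lower ones were FAP at 131 and 25.5 FPKM, DCN at 517 and 135 FPKM and TCF21 at 23.5 and 7.30 FPKM. VIM, the gene of the intermediate filament vimentin, was within 2-fold at 3477 and 3131 FPKM. Of 7 smooth muscle markers 6 were measured, 2 were lower and 0 higher (median log2 ratio 0.10). This list was abundant too, with sums of 1907 and 1574 FPKM. ACTG2 was lower at 999.6 and 444 FPKM, while TAGLN was at 530 and 612 FPKM and ACTA2 at 310 and 423 FPKM. Among all measured genes 8.58% were lower and 6.65% higher. Of 8 epithelial, 6 endothelial and 7 blood cell markers, 3, 2 and 3 were measured, and 3, 1 and 1 were listed at 0 in both libraries. The summed levels of these lists were 16.8 and 9.90 FPKM, 21.6 and 10.4 FPKM, and 57.9 and 43.2 FPKM. Single genes made up most of each sum. In the epithelial list KRT19 was at 11.5 and 1.37 FPKM and KRT18 at 2.84 and 6.75 FPKM. TEK of the endothelial list was at 18.8 and 8.16 FPKM, and CD163 of the blood list at 53.9 and 40.3 FPKM. The part of these lists in the collagen differences was not tested. In bulk RNA, fewer cells that express a collagen gene and less RNA per cell cannot be told apart.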

How the data were processed

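Total RNA of the young and the senescent culture was extracted with Trizol, and cDNA was amplified with a NuGEN Ovation kit for RNA of either polyA state, per the labels' protocols. Per the submitters' processing notes, the tools were TopHat2 2.0.6 and Cufflinks 2.0.2 with Cuffdiff and the build was hg19, with neither order nor settings given. The annotation and the use of strand are not given in the sources used here. The authors deposited 1 table of transcripts with an FPKM per library, a p-value and a q-value per transcript, a status, a length and a class. In the deposited table significant transcripts are those of status OK with a q-value under 0.1. The old column was taken as the senescent library.

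FPKM was summed per gene name over the classes of complete matches, new isoforms of known genes and contained transcripts, leaving out rows with no biotype, with pandas 2.3.3 in Python 3.11.15, and the sums and counts were tested on simulated data. The pseudocount and the filter were 1 FPKM. The length-weighted level is the sum of FPKM times transcript length over the length of the longest transcript. Depth was read from the steps of low values in unnamed loci with 1 transcript, which gave about 15900000 and 14800000 effective fragments in the 2 libraries, young first (81.5% of 3015 and 84.1% of 3546 values whole within 0.05). A fragment on 5000 effective bases is then worth 0.0126 and 0.0135 FPKM, and estimated fragments are FPKM times this depth and the length less 200 bases (at least 50), an approximation. All measured members are named. From each list the text draws on the 3 genes of largest ratio and up to 2 others of highest level, and genes outside this rule are marked. The members and the gene lists were chosen with earlier results of these data known. Promoters are RefSeq's on GRCh38.p14, and hg19 coordinates are those of the deposited table. Alternatives covered the pseudocount, the filter, the way of summing transcripts, their status, the scaling of the libraries and the fold threshold. No test of differences was made, with 1 library per group.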

Additional observations from a re-analysis of the deposited data

How the results depend on the processing

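Over the alternatives, the number of lower collagen genes ran from 11 to 15 and that of higher ones stayed at 1, apart from a 3-fold threshold, where they were 8 and 0. No ratio called past 2-fold changed sign in any alternative run. The median over collagen genes was -0.29 and that of FACIT genes -0.33 without a filter on low values, since 42 and 10 genes then enter, and the FACIT median was -2.12 with the median ratio scaling and -1.59 after rescaling each library to the same sum, where 4 and 5 FACIT genes are measured. The rescaling moved the median of all genes to -0.23.

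Ratios between chains, given for the young and then the senescent library, depended most on how transcripts were combined. With the highest isoform, COL1A1 to COL1A2 was 3.64 in the young library, COL5A1 to COL5A2 1.25 and 0.532, COL4A1 to COL4A2 0.488 and 0.593, COL4A5 to COL4A6 1.63 and 1.42, and in the senescent library COL6A1 to COL6A3 1.08 and COL6A2 to COL6A3 0.362. With transcripts of status OK, COL5A1 to COL5A2 was 1.23 and 0.555, and with rows of no biotype 0.562 and 0.253. With length-weighted values, COL4A1 to COL4A2 was 0.653 and 0.910, COL6A1 to COL6A2 1.81 in the senescent library, COL6A2 to COL6A3 0.466 and 0.416, and COL1A1 to COL3A1 5.85 and 12.6. With coding transcripts, COL6A1 to COL6A2 was 0.682 and 0.660, COL6A1 to COL6A3 0.328 and 0.275, COL6A2 to COL6A3 0.481 and 0.416, and COL1A1 to COL3A1 35.6 in the senescent library. Short transcripts weigh most in a sum and least in the length-weighted values. The length-weighted, coding-transcript and no-biotype settings were chosen after seeing the data.

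Without replicates, the spread between cultures cannot be told apart from the difference between young and senescent cells. COL14A1 and COL15A1 rest on few fragments in the senescent library. No paired analysis was possible because each group holds 1 library.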
